A study of Mus musculus with 12 samples.

Results

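The genes described here serve the ATF4 amino acid response and the charging of tRNA in mouse bone marrow-derived macrophages (BMDMs). They are 40 of the 35275 genes in the count files. By role, 20 encode cytosolic tRNA synthetases (symbols ending in ars, with Eprs, Farsa and Farsb), 8 encode ATF4 and stress regulators, 9 encode enzymes of amino acid and folate metabolism, and 3 encode amino acid transporters. Each belongs to the set by its symbol and had a mean of at least 10 counts over the libraries, and no gene with one of these symbols fell under that minimum. All 40 passed the filter on low counts and were tested.

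RNA was sequenced from wild-type bone marrow cells grown into macrophages for 6 days with M-CSF, IL-4 and IL-10, cytokines that were present in all cultures. The 3 groups of 4 libraries received the solvent DMSO, the PARP inhibitor olaparib, or MNA (N-methylnicotinamide, a methylated derivative of vitamin B3) over the same 6 days. The comparisons ask how each agent alters expression against DMSO. The cultures came from several donor mice, young adults of either sex according to the study's methods, and which library came from which mouse was not given.

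ATF4 is a transcription factor of the integrated stress response. When amino acids run short or proteins misfold, kinases phosphorylate the initiation factor eIF2, general translation slows, and translation of Atf4 mRNA rises, so ATF4 protein is set largely after transcription. With C/EBP partners it binds C/EBP-ATF response elements and induces genes that make, import and sense amino acids. Aminoacyl-tRNA synthetases join each amino acid to its tRNA, and the genes of many cytosolic synthetases are known ATF4 targets. In macrophages, IL-4 and M-CSF promote growth and protein synthesis, which draw on this supply.

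The C/EBP-ATF response element, TGATGNAA, was searched on both strands of the RefSeq promoter windows (GRCm38.p6, 250 bases before to 50 after the start site). Windows were at hand for 29 of the 40 genes. The element was in 10 of these 29 (34.5%) and in 1219 of all 27025 genes with a window (4.51%). Its extended form with a final T, TGATGNAAT, was in 5 of the 29 (17.2%) and 293 of all genes (1.08%). The stretches that hold it are printed on the gene's strand, with the element in capitals. Capitals that do not open with TGATG mark the element on the opposite strand. A match is a description of the letters and no evidence of binding, and some of these genes have further start sites.

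Among the synthetase genes, the element lay 112 bases upstream and 9 bases downstream of the start site in Aars, 30 bases upstream in Gars, 15 bases upstream in Tars, and 7 and 3 bases downstream in Iars and Yars.
Aars, chr8:111033704-111033763, plus strand: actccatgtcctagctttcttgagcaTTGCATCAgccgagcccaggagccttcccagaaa
Aars, chr8:111033840-111033869, plus strand: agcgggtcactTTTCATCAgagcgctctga
Gars, chr6:55037945-55038000, plus strand: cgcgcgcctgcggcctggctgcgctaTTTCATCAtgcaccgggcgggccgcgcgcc
Tars, chr15:11399659-11399699, minus strand: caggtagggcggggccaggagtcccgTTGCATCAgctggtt
Iars, chr13:49682126-49682155, plus strand: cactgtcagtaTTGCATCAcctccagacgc
Yars, chr4:129189895-129189924, plus strand: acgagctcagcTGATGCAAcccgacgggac

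Among the other genes, the element lay 23 bases upstream in Asns, 193 in Chac1, 110 in Nupr1 and 103 in Pycr1, and 14 bases downstream in Trib3.
Asns, chr6:7693210-7693258, minus strand: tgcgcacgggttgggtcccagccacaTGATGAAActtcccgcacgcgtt
Chac1, chr2:119351023-119351082, plus strand: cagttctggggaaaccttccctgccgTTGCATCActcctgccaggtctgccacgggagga
Nupr1, chr7:126625547-126625606, minus strand: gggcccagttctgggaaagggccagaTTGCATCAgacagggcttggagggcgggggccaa
Pycr1, chr11:120643818-120643877, minus strand: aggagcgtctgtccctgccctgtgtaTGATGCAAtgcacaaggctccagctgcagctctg
Trib3, chr2:152344028-152344057, minus strand: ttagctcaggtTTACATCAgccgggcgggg

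Levels below are CPM (the reads of a gene scaled to 1 common library size after TMM normalization), listed from replicate 1 to 4 of each group, and changes are log2 fold changes from edgeR. Gene positions are on GRCm38 (GENCODE M21) and span the whole gene. A gene was called higher or lower at a Benjamini-Hochberg adjusted p under 0.05 over all tested genes. Libraries held 21146291 to 31446849 counts, and the groups overlapped in depth. Whether a lower level reflects fewer cells of a type or less RNA per cell cannot be told apart in bulk samples. All 8 macrophage markers listed passed the filter on low counts, though Fcgr1, the lowest, had a mean of only 0.874 CPM. Their summed level was 4494 to 5761 CPM with DMSO, 8927 to 10719 with olaparib and 4133 to 7655 with MNA. With olaparib 3 were called higher and 1 lower, and with MNA 2 higher and 1 lower. Markers of B cells (4 genes), T and NK cells (5), basophils and mast cells (5) and stromal cells (5) each summed to at most 6.45 CPM in every library, and those of dendritic cells (5 genes) to 17.4 to 26.4 CPM. With MNA all 3 B cell markers and both T and NK cell markers that passed the filter were called higher, at these low levels. So were 1 stromal and 1 dendritic cell marker. With olaparib 1 T and NK cell marker was called higher, and of the dendritic cell markers 1 was called higher and 1 lower. Neutrophil markers (8 genes) reached 65.4 CPM and erythroid markers (4 genes) 54.4 CPM, both in MNA replicate 4, against at most 10.0 and 3.70 CPM with DMSO. The part of these markers in the results was not tested.

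MNA replicate 2 stood with the DMSO libraries rather than with the other 3 MNA libraries in nearly all of these genes. For the mean log2 CPM of the 20 synthetases its difference from the DMSO mean was 0.01, where the other MNA libraries differed by −0.60, −0.44 and −0.51. For the 8 regulators it was −0.01, where the others lay between −2.27 and −1.50. Whether this library was treated as its label says was not tested, and each MNA value that includes it is subject to that doubt. It was kept under its label, and MNA results are given with and without it. Leaving it out was chosen from values of these data, these genes included, so p-values without it are conditional on that choice. Where it stood with DMSO, leaving it out enlarges the MNA changes by itself. The spread is shared by the groups, so this library also widened the errors of the olaparib comparison.

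**Figure D1:**
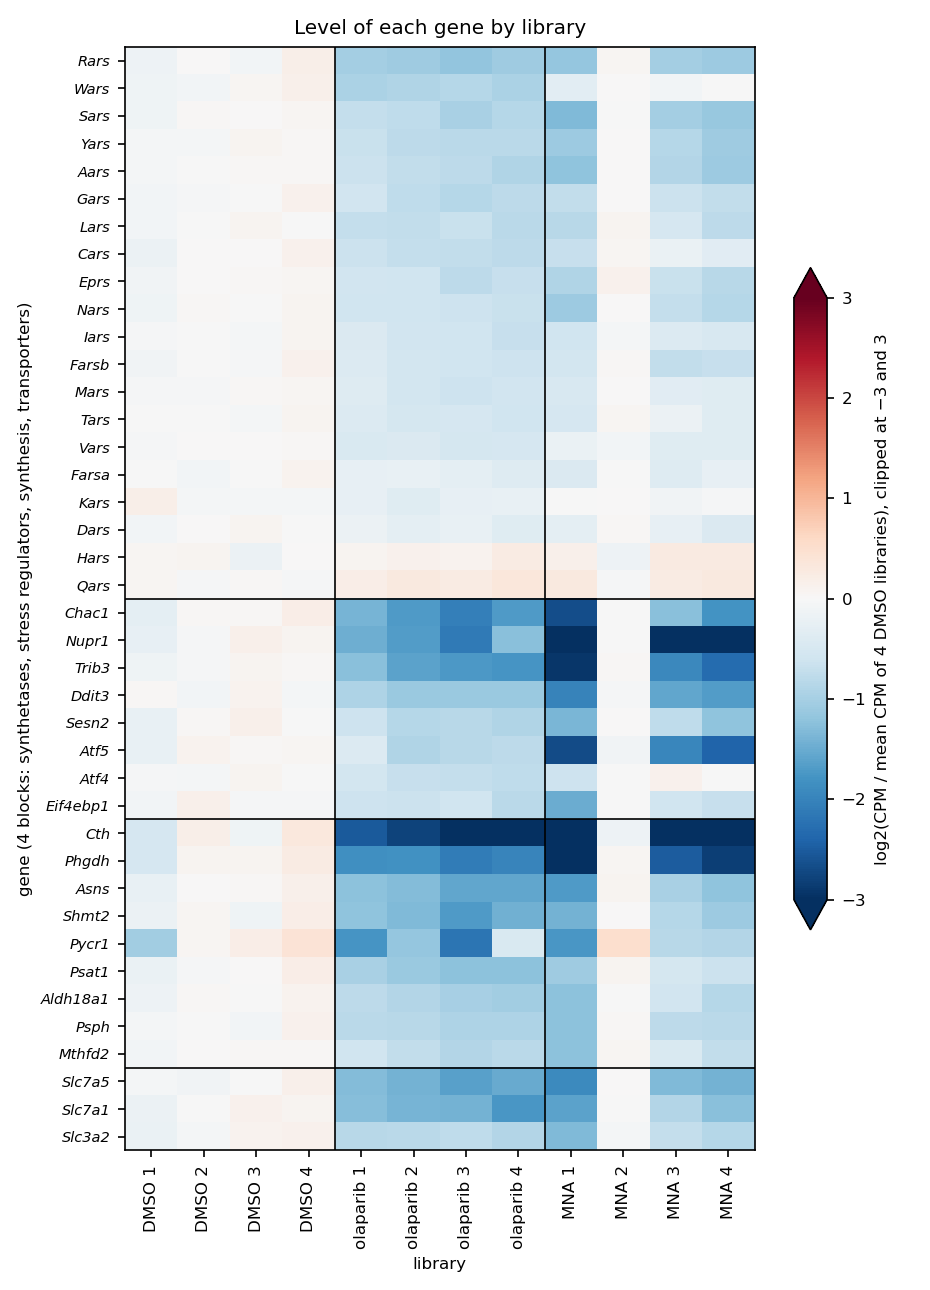
Heat map of the level of each of the 40 genes (rows, in 4 blocks by role) in each of the 12 libraries (columns), as log2 of CPM over the mean CPM of the 4 DMSO libraries, with the colour scale clipped at −3 and 3. The 4 olaparib columns and MNA replicates 1, 3 and 4 are blue in most rows, MNA replicate 2 is near white like the DMSO columns, and Qars is red in those 7 columns.

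Before the treatments are compared, the levels in DMSO show how these genes rank. Per kilobase of annotated exon, Slc3a2, the heavy chain that carries several amino acid transporters to the cell surface, was the highest with a mean of 224 CPM per kb. Atf4 followed at 175 CPM per kb, and Rars, which charges arginine tRNA, was the highest synthetase at 146. The serine pathway enzyme Phgdh stood at 117 and asparagine synthetase, Asns, at 101 CPM per kb. At the low end were Cth, the last enzyme of transsulfuration, at 2.30, and Pycr1, a mitochondrial enzyme of proline synthesis, at 0.244 CPM per kb. In 10 of the 39 pairs of neighbours in this order the 4 DMSO values of one gene lay apart from those of the next, so most neighbours did not differ beyond their spread. Exon lengths are the union over annotated transcripts.

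With olaparib the set fell almost as a whole. Of the 40 genes, 35 were called lower, 1 higher and 4 neither, and in 37 all 4 olaparib libraries lay below all 4 DMSO libraries. Of all 12849 tested genes, 12.8% were called lower, 14.3% higher, and 20.3% had all olaparib libraries below all DMSO libraries. The share of these genes called lower was thus several times that of all genes. The median log2 fold change was −0.77 over the 40 genes and 0.00 over all tested genes. By role, 18 of 20 synthetases were called lower (median −0.60), as were 6 of 8 regulators (−0.93), 8 of 9 synthesis enzymes (−1.24) and 3 of 3 transporters (−1.45). Leaving out MNA replicate 2, 38 were called lower and 1 higher, where 21.2% and 22.5% of all 13023 genes then tested were. Of the 35 calls, 11 were lost when 1 or another DMSO or olaparib library was left out, as given with the genes. Those fits held MNA replicate 2, and all 35 genes kept their call in the fit without it.

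Atf4 (ENSMUSG00000042406, chr15:80255184-80257541, plus strand), the transcription factor itself, was 405, 397, 437 and 409.7 CPM with DMSO, 279, 256, 252 and 243 with olaparib and 269, 408, 454 and 406 with MNA. All olaparib libraries were lower than all DMSO libraries, and the change was −0.68 (SE 0.13, adjusted p = 0.00345). Its window held no match to the element.

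Ddit3 (ENSMUSG00000025408, chr10:127290774-127296288, plus strand) encodes CHOP, a stress transcription factor that acts downstream of ATF4. It stood at 105, 97.7, 111 and 98.8 CPM with DMSO, 54.6, 47.9, 47.8 and 47.4 with olaparib and 25.7, 100.1, 34.7 and 32.4 with MNA. No olaparib library reached the DMSO range, and replicate 1 was the highest of the 4. The change was −1.06 (SE 0.33, adjusted p = 0.0347). The call was lost on leaving out any 1 DMSO or olaparib library (highest adjusted p 0.0816), while without MNA replicate 2 the change was −1.06 (SE 0.08, adjusted p = 5.23e-07). Of the 31-base words of its transcripts 6.8% also occur in another gene, most often in its neighbour Mars.

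Trib3 (ENSMUSG00000032715, chr2:152337422-152344032, minus strand), a pseudokinase that restrains ATF4 and CHOP, stood at 94.5, 101, 109.7 and 105 CPM with DMSO, 42.9, 34.1, 31.1 and 30.3 with olaparib and 13.7, 106, 27.1 and 20.9 with MNA. The groups DMSO and olaparib did not overlap, with a change of −1.57 (SE 0.49, adjusted p = 0.0343). This call too was lost on leaving out any 1 library of the 2 groups (highest adjusted p 0.0869). Chac1 (ENSMUSG00000027313, chr2:119351229-119354381, plus strand), which degrades glutathione, stood at 40.6, 50.8, 50.7 and 56.7 CPM with DMSO, 18.8, 15.2, 11.9 and 15.2 with olaparib and 7.90, 49.5, 20.7 and 14.4 with MNA. It fell with olaparib by a log2 fold change of −1.70 (SE 0.42, adjusted p = 0.0122), again with no overlap.

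Of the other regulators, Sesn2, a leucine sensor that restrains mTORC1, and Eif4ebp1, the translation repressor 4E-BP1, fell with changes of −0.79 (adjusted p = 0.0294) and −0.67 (adjusted p = 0.0399). Eif4ebp1 lost its call in all 8 fits without 1 DMSO or olaparib library (highest adjusted p 0.0981) and Sesn2 in 6 of them (0.0752). The transcription factor Atf5 and the chromatin-associated stress protein Nupr1 were not called, at −0.72 (SE 0.44, adjusted p = 0.241) and −1.58 (SE 0.81, adjusted p = 0.16), although both had all olaparib libraries below all DMSO libraries. Both were called lower once MNA replicate 2 was left out, with adjusted p = 0.000726 for Atf5 and 2.93e-06 for Nupr1.

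Among the synthesis enzymes the drop was deepest in Cth and Phgdh. Cth (ENSMUSG00000028179, chr3:157894248-157925077, minus strand), which releases cysteine from cystathionine, stood at 4.50, 7.29, 5.86 and 8.06 CPM with DMSO, 1.13, 0.943, 0.294 and 0.383 with olaparib and 0.494, 5.77, 0.656 and 0.362 with MNA. That is 96 to 254 reads per library with DMSO and 7 to 32 with olaparib, and the change was −3.21 (SE 0.79, adjusted p = 0.0125).

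Phgdh (ENSMUSG00000053398, chr3:98313170-98339990, minus strand) catalyses the entry step of serine synthesis from glycolysis. It stood at 206, 307, 308 and 344 CPM with DMSO, 81.9, 83.1, 67.9 and 73.7 with olaparib and 26.2, 301, 51.4 and 41.0 with MNA. The olaparib libraries lay within a narrow band far under the DMSO range, a change of −1.93 (SE 0.61, adjusted p = 0.036). The call was lost in 7 of the 8 fits without 1 DMSO or olaparib library (highest adjusted p 0.0857). Of the 31-base words in its transcripts 56.3% also occur in another gene, most often in Gm7901, so this level is less certain.

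Asns (ENSMUSG00000029752, chr6:7675169-7693254, minus strand), which makes asparagine from aspartate and glutamine, stood at 234, 278, 282 and 308 CPM with DMSO, 118, 112, 93.3 and 93.2 with olaparib and 84.3, 290.4, 139 and 119.7 with MNA. All 4 olaparib libraries were under all 4 DMSO libraries, with a change of −1.40 (SE 0.29, adjusted p = 0.00565). The other enzymes of the serine and folate route fell too. The changes were −1.13 for Psat1 and −0.87 for Psph, the remaining serine synthesis enzymes, −1.40 for Shmt2, which turns serine into glycine in mitochondria, and −0.75 for Mthfd2, a mitochondrial folate enzyme, with adjusted p between 0.00195 and 0.0168. For proline, Aldh18a1 fell by a log2 fold change of −0.92 (adjusted p = 0.00618). Pycr1 was not called (−1.24, adjusted p = 0.084), had 5 to 40 reads in these 8 libraries, and was called with the replicate number as a block (−1.24, adjusted p = 0.0484).

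All 3 transporters fell. Slc7a5 (ENSMUSG00000040010, chr8:121881150-121907694, minus strand), the light chain LAT1 that imports leucine and other large neutral amino acids, stood at 71.7, 68.7, 73.1 and 83.1 CPM with DMSO, 30.2, 27.8, 23.9 and 26.1 with olaparib and 19.6, 74.9, 29.8 and 27.6 with MNA. Slc7a1 (ENSMUSG00000041313, chr5:148327410-148399904, minus strand), a carrier of arginine and lysine, stood at 219, 245, 271 and 262 CPM with DMSO, 102, 94.9, 93.6 and 74.1 with olaparib and 81.3, 246, 136 and 105 with MNA. Neither gene overlapped between DMSO and olaparib, with changes of −1.46 (SE 0.32, adjusted p = 0.00706) and −1.45 (SE 0.27, adjusted p = 0.00311). Slc3a2, the partner chain of LAT1, went from 789 ± 79.1 to 447 ± 15.6 CPM (SD, n = 4), a change of −0.82 (SE 0.20, adjusted p = 0.0124).

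Among the synthetases the sizes varied around a median log2 fold change of −0.60. Rars and Wars, chosen here after their values were seen, are the synthetases with the lowest fold changes. Rars (ENSMUSG00000018848, chr11:35808381-35834506, minus strand) stood at 427, 476, 449 and 534 CPM with DMSO, 231, 227, 209 and 225 with olaparib and 212, 489.6, 234 and 223 with MNA, a change of −1.08 (SE 0.22, adjusted p = 0.00555). Wars (ENSMUSG00000021266, chr12:108860030-108894174, minus strand), which charges tryptophan tRNA and is also an interferon-induced gene, stood at 146, 150.2, 166 and 176 CPM with DMSO, 82.1, 85.5, 87.6 and 82.6 with olaparib and 129, 162, 152 and 158 with MNA, a change of −0.92 (SE 0.08, adjusted p = 3.11e-05).

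Between −0.82 and −0.48 lay Sars (−0.82), Yars (−0.77), Aars (−0.76), Gars (−0.73), Lars (−0.73), Cars (−0.71), Eprs (−0.66), Nars (−0.62), Iars (−0.57), Farsb and Mars (both −0.54), Tars (−0.51) and Vars (−0.48). Each of these 13 was called lower with no overlap between the groups. Of the 8 fits without 1 DMSO or olaparib library, Nars lost its call in 7 (highest adjusted p 0.0629), Eprs in 4 (0.0588), and Aars (0.0607) and Sars (0.0578) in 2 each. They charge serine, tyrosine, alanine, glycine, leucine, cysteine, glutamate and proline, asparagine, isoleucine, phenylalanine, methionine, threonine and valine tRNAs. Of the words in the transcripts of Aars 14.4% also occur in another gene, most often in Exosc6. For Iars the share was 14.7%, most often in Gm4849, so both levels are less certain.

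The smallest drops were in Farsa, Kars and Dars. Farsa (ENSMUSG00000003808, chr8:84856989-84869257, plus strand), the other subunit of the phenylalanine enzyme, stood at 61.2, 58.8, 61.5 and 66.9 CPM with DMSO, 52.1, 53.4, 50.6 and 47.3 with olaparib and 46.0, 62.0, 47.4 and 52.1 with MNA. Kars (ENSMUSG00000031948, chr8:111993443-112011323, minus strand), for lysine, stood at 90, 76.6, 77.1 and 77.2 CPM with DMSO, 67.6, 61.9, 67.1 and 68.4 with olaparib and 79.2, 81.1, 74.1 and 78.4 with MNA. Dars (ENSMUSG00000026356, chr1:128363707-128417368, minus strand), for aspartate, stood at 63.1, 67.3, 70.6 and 66.7 CPM with DMSO, 59.0, 54.9, 57.3 and 52.4 with olaparib and 54.7, 69.0, 56.7 and 49.5 with MNA. In each gene the lowest DMSO library was above the highest olaparib library by a small margin, and the changes were −0.29 (SE 0.09, adjusted p = 0.0327), −0.28 (SE 0.06, adjusted p = 0.00955) and −0.26 (SE 0.09, adjusted p = 0.0491). Farsa lost its call in 6 of those fits, with a highest adjusted p of 0.0908. The call for Dars was lost in 13 alternative settings, among them the loss of any 1 DMSO or olaparib library, and its highest adjusted p was 0.122.

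Qars was called higher and Hars was not called. Qars (ENSMUSG00000032604, chr9:108507706-108515941, plus strand), for glutamine, stood at 115, 109, 114 and 108 CPM with DMSO, 128, 136, 131 and 141 with olaparib and 137, 108, 132 and 137 with MNA. All olaparib libraries were above all DMSO libraries, and the change was 0.27 (SE 0.07, adjusted p = 0.0197). The call was lost when DMSO replicate 2 or 4 or olaparib replicate 2 or 4 was dropped (highest adjusted p 0.0635). Hars, for histidine, was 43.3 ± 3.33 CPM with DMSO and 47.7 ± 2.49 with olaparib, 0.14 (SE 0.10, adjusted p = 0.29), with overlapping groups.

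Of the synthetases that cells hold together in the multi-synthetase complex (Dars, Eprs, Iars, Kars, Lars, Mars, Qars and Rars, a grouping made after the values were seen), 7 of 8 were called lower, from −1.08 to −0.26, and Qars was called higher. Of the 12 others, 11 were called lower, with a median of −0.66 against −0.55 in the complex. Genes with the C/EBP-ATF element changed by a median of −1.0, and 8 of 10 were called lower. In genes whose window lacked it the median was −0.79, with 17 of 19 called lower.

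**Figure D2:**
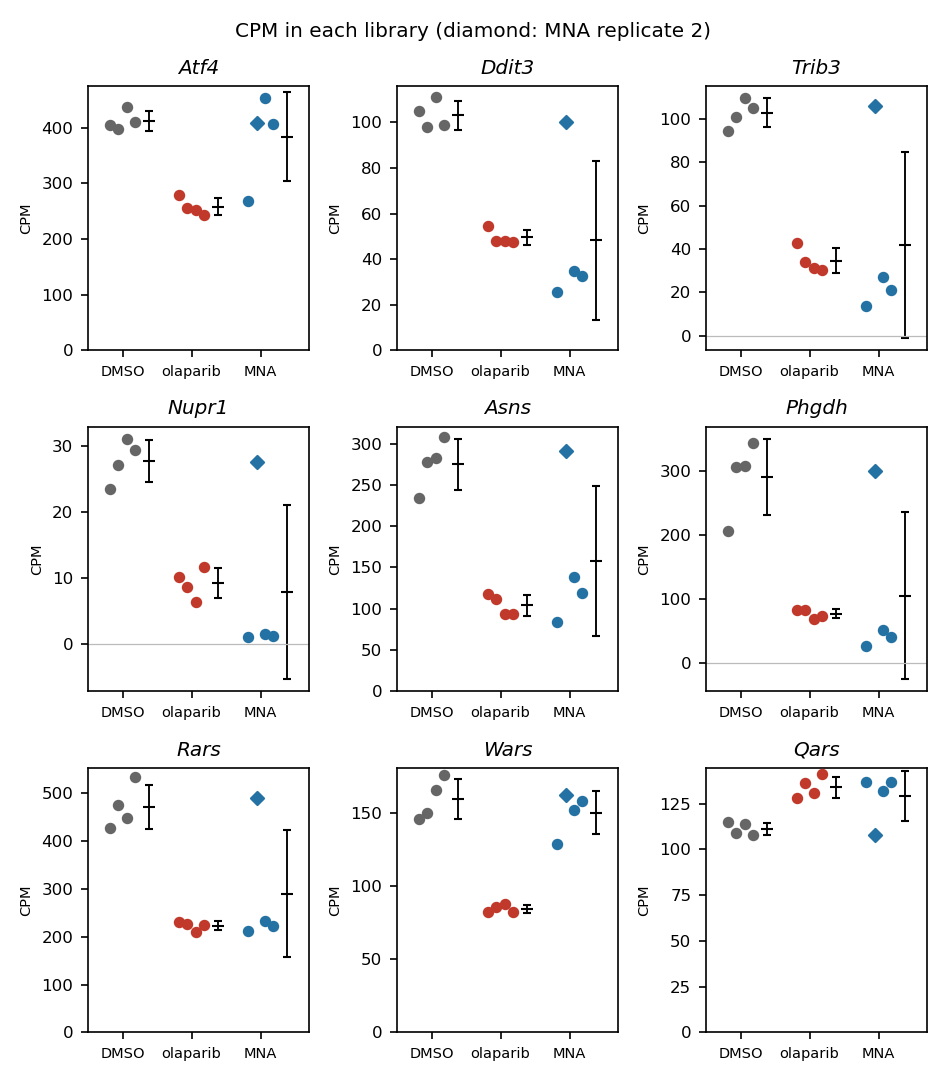
CPM (vertical axes, linear) of 9 of the genes in each of the 4 libraries of DMSO (grey), olaparib (red) and MNA (blue), with the mean and SD of each group as a dash and bar. The diamond is MNA replicate 2, which lies in the DMSO range for Ddit3, Trib3, Nupr1, Asns, Phgdh and Rars, and for Wars the MNA points stay high while the olaparib points are between 82.1 and 87.6 CPM.

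With MNA, 21 of the 40 genes were called lower and none was called higher by edgeR, with 1 positive change at an unadjusted p under 0.05 and 1 call, Qars, by DESeq2. Of all tested genes, 12.3% were called lower and 16.3% higher. All 4 MNA libraries lay below all 4 DMSO libraries in 2 of the 40 genes, Iars and Vars, and in 6.12% of all genes. Leaving out MNA replicate 2 raised the count to 35 called lower and 2 higher, where 26.9% and 27.2% of all 13023 genes then tested were called. The 3 remaining MNA libraries lay below all DMSO libraries in 34 of the 40 genes, against 26.9% of all genes. The median log2 fold change was −0.60 with all libraries and −0.88 without MNA replicate 2, and over all tested genes it was 0.00 in both.

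The 21 calls were close to the threshold. Their count was 8 without DMSO replicate 1, 0 without DMSO replicate 2, 3 or 4, 1 without MNA replicate 1, 0 without MNA replicate 3 or 4, between 10 and 12 without any 1 of the olaparib libraries, and 0 when the 2 groups were fitted alone. The 21 genes were among the 35 called once MNA replicate 2 was left out.

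Atf4 itself was not called with MNA. Its change was −0.10 (SE 0.13, adjusted p = 0.554), and −0.13 (SE 0.13, adjusted p = 0.4) without MNA replicate 2. MNA replicate 1, at 269 CPM, was lower than every DMSO library, while MNA replicates 2, 3 and 4 lay within or above the DMSO range. The sign turned to 0.04 without MNA replicate 1.

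The regulators downstream of ATF4 were much lower in MNA replicates 1, 3 and 4. Atf5 (ENSMUSG00000038539, chr7:44812256-44816658, minus strand) stood at 91.4, 116, 109 and 111 CPM with DMSO, 80.9, 57.2, 60.3 and 62.5 with olaparib and 16.7, 99.1, 27.4 and 20.4 with MNA. Its change was −1.39 (SE 0.45, adjusted p = 0.0392) with all libraries and −2.32 (SE 0.16, adjusted p = 6.07e-08) without MNA replicate 2. Ddit3, with the values given above, changed by −1.10 (SE 0.33, adjusted p = 0.0324) and by −1.74 (SE 0.09, adjusted p = 8.11e-09) without that library.

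Nupr1 (ENSMUSG00000030717, chr7:126623249-126630861, minus strand), chosen here after its values were seen, had the lowest fold change against DMSO once MNA replicate 2 was left out. It stood at 23.5, 27.0, 31 and 29.3 CPM with DMSO, 10.1, 8.61, 6.39 and 11.7 with olaparib and 1.15, 27.6, 1.54 and 1.25 with MNA. Reads numbered 502 to 925 with DMSO and as few as 28 with MNA, and 771 in the MNA library with the most. The change was −1.80 (SE 0.82, adjusted p = 0.108) with all MNA libraries and −4.39 (SE 0.21, adjusted p = 3.2e-09) without replicate 2.

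Trib3 and Chac1 were not called with all libraries and no block, at −1.29 (SE 0.49, adjusted p = 0.0624) and −1.10 (SE 0.41, adjusted p = 0.059), and were called lower without MNA replicate 2, by −2.32 and −1.79. Sesn2 was called in both fits, at −0.73 (SE 0.24, adjusted p = 0.0407) and −1.09 (SE 0.13, adjusted p = 6.66e-06). Eif4ebp1 had an adjusted p of 0.0553 with all libraries and 0.000304 without MNA replicate 2, where its change was −0.87.

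Of the synthesis enzymes, Psph, Shmt2 and Aldh18a1 were called lower with all libraries, from −0.73 to −0.59. All 9 were called lower without MNA replicate 2, with Cth at −3.66 (SE 0.40, adjusted p = 3.73e-06) and Phgdh at −2.88 (SE 0.21, adjusted p = 1.02e-07) the deepest. Asns then changed by −1.27 (SE 0.15, adjusted p = 8.27e-06), where it was −0.80 (SE 0.29, adjusted p = 0.055) with all libraries. Psat1 had the smallest drop of the 9, −0.73, and Pycr1 was −1.11 (SE 0.44, adjusted p = 0.0468). Pycr1 stood at 0.288, 0.54 and 0.523 CPM in MNA replicates 1, 3 and 4, against 1.36 in MNA replicate 2. Its reads were 7 to 38 over all MNA libraries, with the most in replicate 2, which this fit left out.

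The transporters were called lower in both fits. Slc7a5 changed by −0.96 (SE 0.31, adjusted p = 0.04), Slc7a1 by −0.81 (SE 0.26, adjusted p = 0.0393) and Slc3a2 by −0.67 (SE 0.20, adjusted p = 0.0307). Without MNA replicate 2 the changes were −1.53, −1.22 and −0.95.

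Of the synthetases, 12 of 20 were called lower with all MNA libraries, and 16 lower and 2 higher without replicate 2. Sars (ENSMUSG00000068739, chr3:108424865-108445209, minus strand), for serine, stood at 349, 389.8, 381 and 395 CPM with DMSO, 231, 222, 192 and 211 with olaparib and 151, 374, 188 and 171 with MNA. Its MNA replicates 1, 3 and 4 were all below its olaparib libraries, and the change against DMSO was −0.78 (SE 0.23, adjusted p = 0.0288), or −1.16 (SE 0.09, adjusted p = 1.07e-07) without MNA replicate 2. Rars, Aars, Yars and Nars followed Sars at −1.08, −1.05, −1.01 and −0.88 in the fit without it.

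The called synthetases with the smallest changes were Farsb, Iars, Mars, Farsa and Vars. Farsb (ENSMUSG00000026245, chr1:78417975-78488897, minus strand) stood at 93.4, 100, 98.3 and 109 CPM with DMSO, 76.0, 68.2, 66.7 and 65.3 with olaparib and 68.2, 102, 60.1 and 62.2 with MNA, a change of −0.45 (SE 0.14, adjusted p = 0.0348). Iars (ENSMUSG00000037851, chr13:49682100-49734267, plus strand) stood at 178, 179, 175 and 191 CPM with DMSO, 134, 121, 119 and 112 with olaparib and 120.5, 173, 137 and 129 with MNA, a change of −0.37 (SE 0.10, adjusted p = 0.0232). Without MNA replicate 2 the changes were −0.66 and −0.49. In Iars even MNA replicate 2 lay just below the lowest DMSO library.

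Mars (ENSMUSG00000040354, chr10:127296221-127311786, minus strand) stood at 99.8, 101, 106 and 107 CPM with DMSO, 78.8, 70.8, 67.0 and 68.8 with olaparib and 73.7, 104, 81.7 and 80.4 with MNA, a change of −0.28 (SE 0.10, adjusted p = 0.0445). Vars (ENSMUSG00000007029, chr17:35000987-35016322, plus strand) stood at 85.6, 88.8, 88.2 and 89.7 CPM with DMSO, 64.3, 64.9, 61.0 and 61.9 with olaparib and 76.4, 83.1, 68.3 and 68.2 with MNA, a change of −0.25 (SE 0.07, adjusted p = 0.0215). Farsa, with the values given above, changed by −0.26 (SE 0.09, adjusted p = 0.0474). Without MNA replicate 2 the changes were −0.40 for Mars, −0.31 for Vars and −0.36 for Farsa. For Mars and Farsa, MNA replicate 2 was the only MNA library inside the DMSO range.

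Wars and Kars were not called with MNA. With all libraries they changed by −0.09 (SE 0.08, adjusted p = 0.414) and −0.04 (SE 0.06, adjusted p = 0.684), and the sign of Kars turned to 0.02 without DMSO replicate 1. The change of Wars was −0.13 (SE 0.08, adjusted p = 0.201) and that of Kars −0.06 (SE 0.06, adjusted p = 0.485) without MNA replicate 2, and both overlapped with DMSO. Qars and Hars were called higher in that fit, at 0.28 (SE 0.05, adjusted p = 0.000531) and 0.23 (SE 0.07, adjusted p = 0.0121), with MNA replicates 1, 3 and 4 above all DMSO libraries in both. With all MNA libraries neither was called (0.21 (SE 0.07, adjusted p = 0.0508) and 0.14 (SE 0.10, adjusted p = 0.256)).

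**Figure D3:**
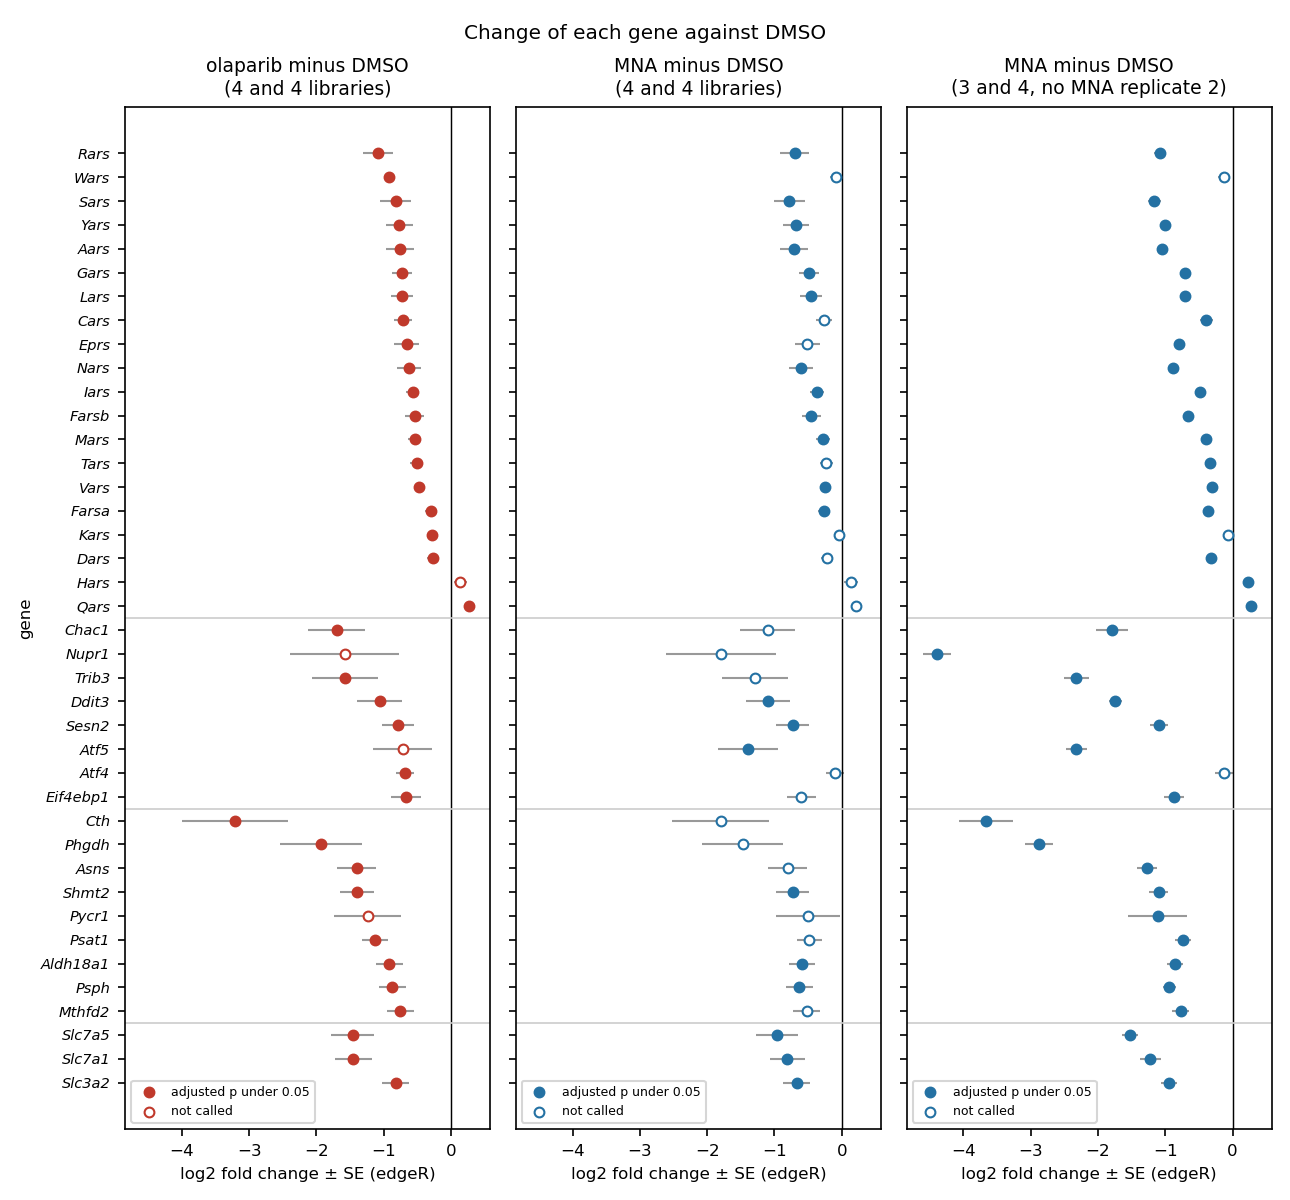
log2 fold change ± SE from edgeR (horizontal axis) of each of the 40 genes (rows) for olaparib minus DMSO, MNA minus DMSO, and MNA minus DMSO without MNA replicate 2, with filled points for an adjusted p under 0.05. Nearly all points lie left of 0, the third panel has the shortest error bars and reaches −4.39 for Nupr1, and Qars lies right of 0 in all 3 panels.

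Both comparisons above share the DMSO libraries, so likeness between them is not taken as a result. The agents were instead compared directly. Of the 40 genes, 6 were called lower with olaparib than with MNA, and none higher by edgeR, with 0 positive changes at an unadjusted p under 0.05. DESeq2 called none higher either, but it gave no adjusted p for Atf5, Nupr1, Phgdh and Trib3 and so could not call them. Of all tested genes, 10.9% were called lower and 10.9% higher. Without MNA replicate 2, 6 were called lower and 9 higher, where 20.7% and 21.5% of all genes were. The share called lower with all libraries is near the background, and without MNA replicate 2 the share called higher is near it and the share called lower is below it. With all libraries 36 of the 40 changes were negative, with a median of −0.24 against −0.01 over all genes, and without MNA replicate 2 the median was 0.04. The count of genes called lower fell to 3 without olaparib replicate 2, 3 or 4 and rose to 10 without MNA replicate 1.

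The gene with the lowest adjusted p was Wars, −0.83 (SE 0.08, adjusted p = 5.34e-05) for olaparib minus MNA and −0.79 (SE 0.08, adjusted p = 4e-06) without MNA replicate 2, with all olaparib libraries below all MNA libraries. Atf4 was lower with olaparib by −0.58 (SE 0.13, adjusted p = 0.00803), and by −0.55 (SE 0.13, adjusted p = 0.00347) without that library, although MNA replicate 1 lay inside the olaparib range. Kars (−0.24, adjusted p = 0.0202) and Vars (−0.23, adjusted p = 0.0261) were also lower without overlap. The remaining genes called lower were Cars (−0.45, adjusted p = 0.0241) and Psat1 (−0.65, adjusted p = 0.0279), and all 6 kept their call without MNA replicate 2.

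The genes called higher with olaparib than with MNA in the fit without MNA replicate 2 were 4 stress regulators, Phgdh and 4 synthetases. Nupr1 differed by 2.81 (SE 0.22, adjusted p = 4.09e-07), Atf5 by 1.60 (SE 0.16, adjusted p = 3.02e-06), Trib3 by 0.75 (SE 0.18, adjusted p = 0.00347) and Ddit3 by 0.68 (SE 0.09, adjusted p = 5.74e-05). Phgdh differed by 0.95 (SE 0.20, adjusted p = 0.00155). The synthetases Sars, Aars, Nars and Yars differed by 0.33, 0.29, 0.26 and 0.24. With all libraries each of these 9 was uncalled, with adjusted p from 0.308 to 0.958.

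For the transporters no difference between the agents was called in either fit. Without MNA replicate 2 the differences were 0.07 for Slc7a5, −0.24 for Slc7a1 and 0.13 for Slc3a2, with standard errors of 0.12 to 0.14. Asns, at −0.14 (SE 0.14, adjusted p = 0.483), and Rars, at −0.00 with an SE of 0.07, were likewise not called.

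**Figure D4:**
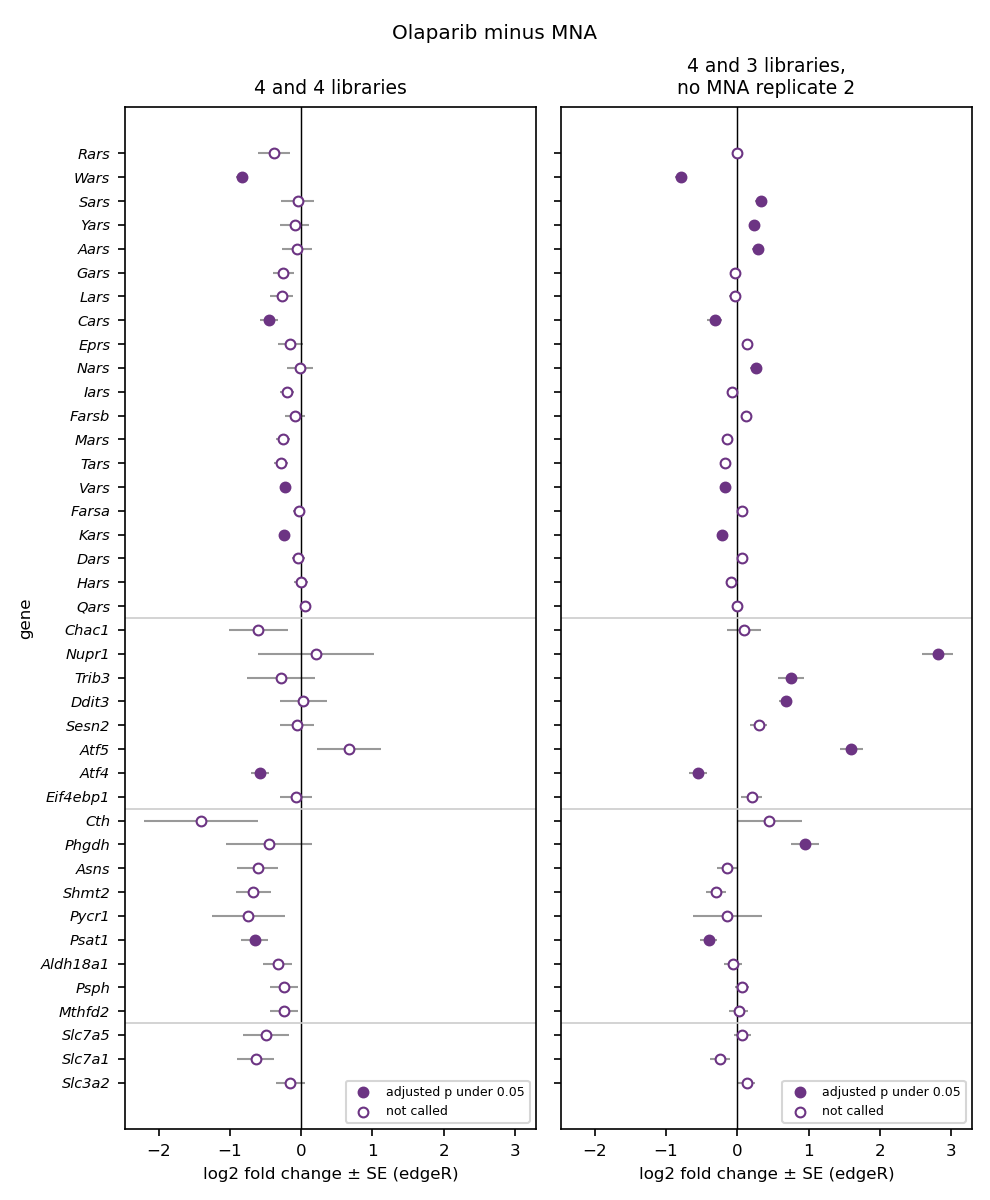
log2 fold change ± SE from edgeR (horizontal axis) of each of the 40 genes (rows) for olaparib minus MNA, with all libraries and without MNA replicate 2, and filled points for an adjusted p under 0.05. Wars, Atf4, Psat1, Cars, Kars and Vars are filled left of 0 in both panels, and in the second panel 9 genes are filled right of 0, up to 2.81 for Nupr1.

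Other genes of the pathway were read from lists written by hand, each gene as 1 of all tested. In each list the genes named are those with the smallest p with olaparib, so genes called only with MNA may go unnamed. Beside the counts stand the shares of all genes given above, 12.8% called lower and 14.3% higher with olaparib and 12.3% and 16.3% with MNA. In the fits without MNA replicate 2 they were 21.2% and 22.5% with olaparib and 26.9% and 27.2% with MNA. The 17 mitochondrial synthetases (symbols ending in ars2), which serve the separate translation of organelle transcripts, were mostly uncalled with all libraries. With olaparib the 1 call was Wars2, which went from 18.2 ± 1.69 to 13.2 ± 1.32 CPM (SD, n = 4, −0.47, adjusted p = 0.0123), and the median log2 fold change was −0.17. Cars2 and Sars2 were uncalled at 0.36, adjusted p = 0.0526 and −0.41, adjusted p = 0.0734. Both were called without MNA replicate 2 (adjusted p = 0.0169 and 0.0112), and the counts were 4 lower and 1 higher. With MNA the 1 call was Cars2, which was higher (0.42, adjusted p = 0.0301, or 0.50, adjusted p = 0.00253 without MNA replicate 2), the median was −0.09, and without MNA replicate 2 the counts were 7 lower and 1 higher.

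The 3 scaffolds of the cytosolic synthetase complex, Aimp1, Aimp2 and Eef1e1, were all called lower with olaparib, at −0.32, adjusted p = 0.04, −0.40, adjusted p = 0.0434 and −0.54, adjusted p = 0.00745. With MNA their adjusted p ran from 0.0812 to 0.185 with all libraries, and all 3 were called lower without MNA replicate 2 (median −0.37).

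Of 13 genes upstream of ATF4 in the integrated stress response, 2 were called lower and 2 higher with olaparib (median −0.13), or 5 lower and 2 higher without MNA replicate 2. Ppp1r15a and Ppp1r15b, which direct the phosphatase that restores eIF2, fell with changes of −1.19, adjusted p = 0.0143 and −0.59, adjusted p = 0.0107. The kinase gene Eif2ak2 (PKR), which interferon induces, rose (0.67, adjusted p = 0.0198). With MNA 3 were called lower and 2 higher, among them Ppp1r15a (−1.08, adjusted p = 0.0248, or −1.64, adjusted p = 8.35e-09 without MNA replicate 2), Ppp1r15b (−0.58, adjusted p = 0.0183, or −0.79, adjusted p = 4.15e-07 without MNA replicate 2) and Eif2ak2 (0.60, adjusted p = 0.0324, or 0.79, adjusted p = 5.58e-06 without MNA replicate 2), and without MNA replicate 2 the counts were 6 lower and 2 higher.

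Among 6 partners of ATF4 and other stress factors of its family, 4 were called lower and 1 higher with olaparib (median −0.48), the same counts as without MNA replicate 2. Jdp2, a repressor, changed by −0.77, adjusted p = 0.00414, and Atf3, which ATF4 induces, by −0.37, adjusted p = 0.012. The gene called higher was Nfe2l2, which encodes NRF2 of the oxidative stress response (357 ± 44.6 to 699 ± 29.6 CPM, 0.97, adjusted p = 0.00923). With MNA 2 were called lower and Nfe2l2 was called higher (1.09, adjusted p = 0.0142, or 1.31, adjusted p = 2.73e-08 without MNA replicate 2), and without MNA replicate 2 the counts were 5 lower and 1 higher.

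Of 20 further genes known as ATF4 targets, 18 were tested, and 7 were called lower and 2 higher with olaparib (median −0.65), or 11 lower and 2 higher without MNA replicate 2. The glutamine transporter Slc38a2 went from 419.6 ± 47.3 to 165 ± 17.7 CPM (−1.34, adjusted p = 0.00267) and Slc1a5, another glutamine carrier, from 144 ± 4.38 to 95.9 ± 6.85 CPM (−0.59, adjusted p = 0.000572). Against the direction of the set, Slc7a11, the cystine importer that NRF2 also induces, rose from 144 ± 8.29 to 402 ± 28.0 CPM (1.48, adjusted p = 0.00053). It was also called higher with MNA (0.96, adjusted p = 0.0142, or 1.16, adjusted p = 5.08e-08 without MNA replicate 2), where 6 of the 18 were called lower and 2 higher, or 12 and 2 without MNA replicate 2.

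Of 13 genes of the other arms of the endoplasmic reticulum stress response, 7 were called with olaparib, all lower (median −0.30), and 9, all lower, without MNA replicate 2. Ern1, which encodes the sensor IRE1, went from 173 ± 26.7 to 92.5 ± 3.96 CPM (−0.91, adjusted p = 0.00191), and the chaperone genes Dnajc3 and Hyou1 changed by −0.39, adjusted p = 0.00566 and −0.43, adjusted p = 0.00575. With MNA the 3 calls were lower too, and without MNA replicate 2 the counts were 6 lower and 1 higher.

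Across the 12 libraries, the genes most like the mean profile of the 18 synthetases that fell with olaparib were Gars (Pearson r = 0.994), Eif3c, a subunit of an initiation factor (0.992), Glce, an enzyme of heparan sulfate synthesis (0.992), Rars (0.991) and Asns (0.989). Gars and Rars are part of the profile they were set against. The points of these correlations are libraries that share group, depth and preparation, so r is a description.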

How the data were processed

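The authors deposited 1 file of gene counts per library (35275 genes), made from single-end reads of a stranded mRNA preparation; the submitters' notes name STAR 2.5.2b, GRCm38.p5 (mm10), R 3.6.0 and DESeq2. The strand setting behind the counts is not given in the sources used here. Library totals were 21146291 to 31446849 counts, and their number limits the precision of low genes. The 40 genes, the further lists and the tests were chosen with earlier results of these data known.

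Genes were kept with edgeR's filterByExpr (minimum count 10, minimum total 15), scaled by TMM and fitted over the 3 groups of 4 libraries with edgeR 4.0.16 in R 4.3.3 (quasi-likelihood F test, two-sided, Benjamini-Hochberg over 12849 genes, 0.05). Standard errors were derived from F. Since the libraries are not assigned to mice, p-values measure only the spread between these samples. On simulated counts for 12849 genes the test recovered 94 of 100 genes changed 4-fold and 65 of 100 changed 2-fold, with 6 false calls. The simulation changed 200 genes, fewer than were called in the data. No simulated library was set apart from its group, so these rates need not hold here. Genes described per library were Atf4, Ddit3 and Asns and, per comparison with DMSO, the called genes at either end of the order of log2 fold changes (5 at each end), and others are said to have been chosen after their values were seen.

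Alternatives were DESeq2 1.42.0, RLE and upper-quartile factors, no filter or a mean of at least 50 counts, 2 groups alone, each library left out, and the replicate number as a block. Same-numbered olaparib and DMSO libraries deviated together (r = 0.227, 0.172, 0.225 and 0.408). Libraries of different number were not compared, so this check cannot decide whether the numbers mark pairs. The main fit used the group only, without a block. For MNA and DMSO libraries r was 0.242, 0.114, −0.009 and 0.277, and for olaparib and MNA libraries 0.07, 0.137, 0.131 and 0.392. MNA replicate 2 entered the group mean from which the MNA deviations were taken. Positions are from GENCODE M21 (GRCm38, 34490 of 35275 identifiers matched), promoter windows from RefSeq (GRCm38.p6), and shared sequence was counted as 31-base words of annotated transcripts.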

Additional observations from a re-analysis of the deposited data

Results flagged for a closer look

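Over the 40 genes and 3 groups, 120 groups of 4 libraries were screened for a library far from the other 3, by Dixon's ratio of the gap to the range, and 14 passed the 95% critical value. Chance passes about 1 in 20 such groups. These genes were read in the same libraries and tend to change together, so the flags are not separate events. In 12 of the 14 the distant library was MNA replicate 2. The ratios were 0.835 in Eprs, 0.888 in Gars, 0.836 in Qars, 0.922 in Rars, 0.833 in Sars and 0.843 in Yars among the synthetases. They were 0.87 in Atf5, 0.88 in Ddit3, 0.855 in Trib3 and 0.985 in Nupr1 among the regulators, and 0.908 in Phgdh and 0.946 in Cth among the enzymes. The remaining ratios were for DMSO replicate 1 in Kars (0.957) and olaparib replicate 1 in Ddit3 (0.932).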

How the results depend on the processing

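No alternative setting moved the median of all genes by more than 0.042 on the log2 scale. That shift was for olaparib against DMSO with no filter on low counts (0.046, against 0.004 in the main fit). With upper-quartile factors the median there was 0.029. For olaparib against DMSO, the genes called lower numbered 24 to 38 over the fits that leave out 1 library and those called higher 0 to 1. With the 2 groups alone 38 were called lower and with DESeq2 33, and 1 was called higher in each. The replicate block gave 36 genes called lower, the addition being Pycr1, and changed no other call among the 40 genes there. For MNA against DMSO, the genes called lower numbered 0 with the 2 groups alone, 0 to 35 with 1 library left out, and 35 with the replicate block and no MNA 2 library. Those called higher numbered 0 to 2 with 1 library left out, 2 with the replicate block and no MNA 2 library, and 1 each with DESeq2, upper-quartile factors and the stricter filter (mean count of 50 or more). The replicate block with all libraries gave 28 genes called lower, adding Eprs (adjusted p = 0.0321), Trib3 (0.0294), Chac1 (0.0362), Eif4ebp1 (0.0316), Nupr1 (0.0374), Asns (0.0298), Phgdh (0.0251) and Cth (0.0243), while Mars lost its call (0.0512). For olaparib against MNA, the genes called lower numbered 3 with the 2 groups alone and 3 to 10 with 1 library left out, and those called higher 0 to 9, or 10 with the replicate block and no MNA 2 library. In MNA against DMSO the sign turned for Kars (−0.06 to 0.02 with 1 library left out, 0.02 without DMSO replicate 1) and for Atf4 (−0.19 to 0.04, 0.04 without MNA replicate 1). The causes were not tested. DESeq2 gave no adjusted p for Atf5, Nupr1, Phgdh and Trib3, and on simulated counts it made 29 false calls. Reads of Cth and Pycr1 were few, so their fold changes are imprecise.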
